A study of Homo sapiens with 6 samples.

Results

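The 6 arrays of this experiment fall into 2 sets of 3 that cross the transduction labels. HEK293T cells, a human embryonic kidney line that carries SV40 large T antigen, were transduced with lentivirus encoding RUNX1, a hematopoietic transcription factor, or with the MCS control virus at 10 MOI, selected with 1 µg/ml puromycin and harvested 7 days after transduction. Each transduction had 3 arrays, from biological triplicates. Their RNA was read on Illumina HT-12 v4 BeadChips, whose bead-bound DNA probes capture labelled cRNA. Side 1 holds RUNX1 replicate 1, RUNX1 replicate 2 and MCS replicate 1. Side 2 holds MCS replicates 2 and 3 and RUNX1 replicate 3. The sides were chosen from the measured expression values themselves, along the first principal component of the arrays, so every difference between them is a description and carries no test. No label names what the arrays of a side share beyond the cell line and the selection, and chip, position and harvest of an array are not given in the sources used here.

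Of 20046 genes with a named probe, 11129 were detected (detection p under 0.05) on at least 3 of the 6 arrays and were described. Values are log2 intensities after background correction and quantile normalization, and a side difference is the mean of side 1 minus the mean of side 2, so that 1 is a 2-fold higher level on side 1. The first component held 66.7% of the variance of these genes. The correlation of 2 arrays across genes was 0.9884 to 0.9940 within a side and 0.9693 to 0.9817 between sides, without overlap. The median absolute side difference was 0.234, beside a median SD within a side of 0.153, and the median difference of all genes was 0.0518. MCS replicate 2 lay nearest to the other side: on a scale where 0 is the side 2 mean and 1 the side 1 mean, its median position over the genes with at least 2-fold differences was 0.109, beside -0.0514 for RUNX1 replicate 3 and -0.0547 for MCS replicate 3. The share of probes detected was 39.83% to 40.91% on side 1 and 38.31% to 39.58% on side 2, and the 75th percentile of the raw intensities, 195.6 to 215.5 and 184.3 to 220.8, overlapped. Whether RNA quality or hybridization plays a part in the side differences was not tested. In bulk RNA, fewer cells of a type and less RNA per cell cannot be told apart.

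Markers of the line were present on both sides. KRT18, an epithelial keratin, and NEFM and INA, neurofilament genes that HEK293T cells are known to express, were detected on all 6 arrays, with side differences of -0.29, 0.21 and 0.44. VIM, the mesenchymal filament vimentin, was at 12.17, 12.18 and 12.14 on side 1 and 12.42, 12.69 and 12.63 on side 2, without overlap. Of 30 blood cell markers with a named probe, 17 were detected on no array, among them PTPRC, the pan-leukocyte antigen, and SPI1, and the mean level over the 30 was 5.755 to 5.847 on side 1 and 5.784 to 5.838 on side 2. Of 15 fibroblast and endothelial markers 5 were detected on no array, among them THY1, PDGFRB, PECAM1 and CDH5, and the mean level of the 15 was 5.575 to 5.662 on side 1 and 5.238 to 5.282 on side 2. Only 3 of these 15 passed the filter. ACTA2, smooth muscle actin, was detected on all 6 arrays and was 1.22 higher on side 1. LUM was undetected on side 2 and COL1A1 was detected on 1 array there, so these 2 passed the filter mainly or wholly through side 1, where they were higher. The part of other cells in the side differences was not tested.

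Counted without a test, 2925 genes (26.3% of those described) were higher on each array of side 1 than on any array of side 2, and 2019 (18.1%) the other way round. For 202 genes (1.82%) the higher side was side 1 and the difference at least 2-fold, and for 137 (1.23%) it was side 2. By measured means 24 genes were at least 4-fold higher on side 1 and 2 on side 2, but 9 of the 24 were undetected on side 2, where their level is only a bound. Among genes detected on all 6 arrays, 13 and 1 were at least 4-fold higher. The balance of the 2-fold counts depended on filter and scale, with 107 and 109 genes under a detection p under 0.01 on all 6 arrays and 42 and 40 with the authors' processed values. No gene with a 2-fold difference of means had overlapping sides. The filter itself favours such genes, since 157 genes were detected on exactly the 3 arrays of side 1 and 38 on exactly those of side 2. Of the 202 genes, 130 were detected on all 6 arrays and 37 on none of side 2. Of the 137, 115 were detected on all 6 arrays and 8 on none of side 1. The genes nearest the 2-fold limit were CNRIP1 (1.00) inside and CCDC110 (0.995) outside on side 1, and ZNF394 (-1.001) inside and EXO5 (-0.9994) outside on side 2. For 67 of the 339 genes at least 1 more probe passed the filter. All such probes separated the sides the same way for 39 genes, and a probe separated them the opposite way for 3 (ANTXR1, ARL16 and JHY).

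The side differences were also seen within each transduction. Both RUNX1 and MCS arrays lie on both sides, and the side difference of the RUNX1 arrays shares no array with that of the MCS arrays. At least a 2-fold difference in the same direction within both was found for 149 genes higher on side 1 (1.34%) and 91 higher on side 2 (0.818%), and in opposite directions for 0. Across genes, which are not independent replicates, the 2 differences correlated at 0.737. Since the arrays of each transduction were placed on their sides by the same values, this too is a description.

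**Figure D1:**
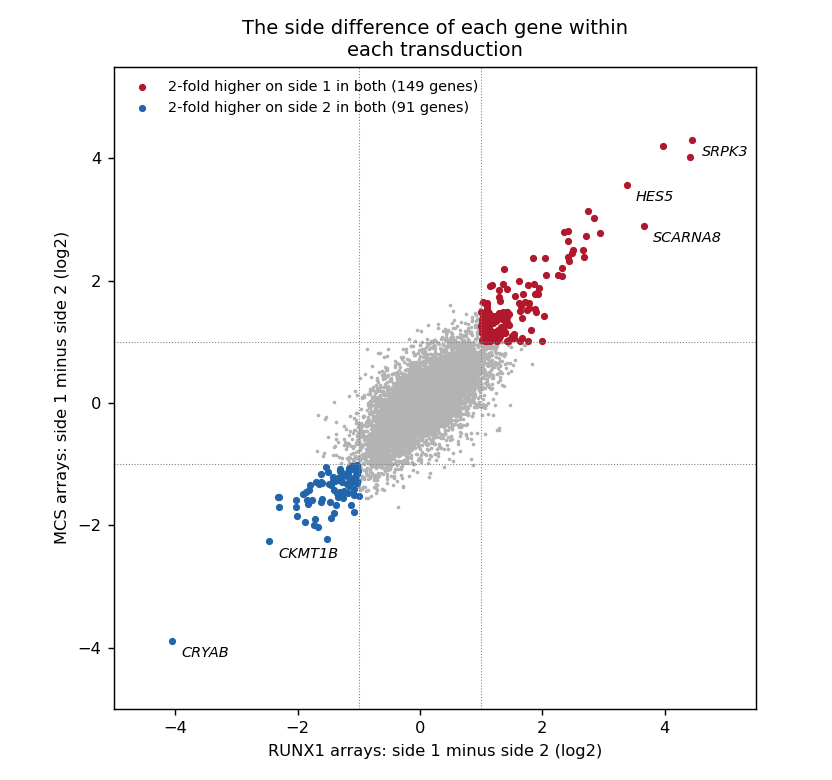
Side difference of each of 11129 genes (log2, side 1 minus side 2) within the RUNX1 arrays (x axis) and within the MCS arrays (y axis), with dotted lines at 2-fold. The 149 red and 91 blue genes lie in the upper right and lower left corners, and no gene lies in the other 2 corners.

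In the reverse comparison, RUNX1 minus MCS within each side, few genes passed 2-fold. A 2-fold difference was found for 7 genes on side 1 and 26 on side 2. On both sides it was found for 0 of 11129 genes (0.0%) in the same direction and for 0 in opposite directions. With so few genes past the limit, these counts of 0 say little about agreement. At 1.5-fold, 12 genes differed in opposite directions on the sides, 12 were lower in RUNX1 on both and 9 were higher on both. The highest were BAK1, a pore-forming BCL2 family member (0.78 on side 1 and 1.00 on side 2), GABARAP, an autophagy protein (0.78 and 0.97), LPA (0.78 and 0.76), TELO2 (0.71 and 0.95) and ANXA1, the phospholipid-binding annexin A1 (0.77 and 0.71). The lowest were ABHD11 (-0.83 and -0.82), the deacetylase gene SIRT6 (-0.82 and -0.88), PHF14 (-0.78 and -0.93), KRTAP21-2 (-0.93 and -0.75) and KIAA0930 (-0.70 and -0.79). Among the genes named here only ANXA1 was detected on all 6 arrays. The others were undetected on at least 1 array, so their differences rest partly on signals at background. BAK1, for example, was at 5.12 to 6.36, beside a lowest detected signal of 5.43 to 5.55 on the arrays. Each side holds 1 array of 1 transduction and 2 of the other, so the error of the RUNX1 minus MCS values within a side was not estimated. Tested over all arrays, 0 genes (0.0%) differed between RUNX1 and MCS at an adjusted p under 0.05 from limma, with 251 at an unadjusted p under 0.05. This fit held no term for the sides, so the side differences entered its error and lowered its power. The count of 0 therefore does not show that RUNX1 had no effect. Of the 18 signals of the 3 RUNX1 probes 1 was detected, and 0 on RUNX1 arrays, so the arrays give no check of the transduction labels. Every RUNX1 minus MCS value rests on the labels as given. If RUNX1 replicate 3 and MCS replicate 1 had been exchanged, the sides would be the transductions, and these arrays cannot tell the 2 cases apart.

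The sides were first described by 8 marker genes, chosen with their values known and not the 8 largest differences. Those higher on side 1 were SRPK3, a kinase of splicing factors known from muscle, FOLR1, the folate receptor alpha, HES5, a transcriptional repressor induced by Notch, and CITED1, a transcriptional cofactor of nephron progenitors. Those higher on side 2 were CRYAB, the small heat shock protein alpha B-crystallin, CKMT1B, a mitochondrial creatine kinase, and the stress genes GADD45A and DDIT3. SRPK3 was at 9.01 ± 0.0889 (SD, n = 3) on side 1 and 4.61 ± 0.150 (SD, n = 3) on side 2, where it was detected on no array, which makes it at least 11.3-fold higher. FOLR1, likewise undetected on side 2, was at least 13.7-fold higher on side 1. These bounds set the mean of the bright side against the lowest detected signal of each dim array.
HES5 was 10.3-fold higher on side 1, at 10.2 ± 0.257 (SD, n = 3) against 6.82 ± 0.166 (SD, n = 3). CITED1 was at 11.25, 11.28 and 11.38 on side 1 and at 8.42, 8.48 and 8.22 on side 2. The gap of CITED1 was 7.61-fold, and its side difference was 2.84 among RUNX1 arrays and 3.03 among MCS arrays. CRYAB was at 9.01 ± 0.527 (SD, n = 3) on side 2, beside 5.12 ± 0.346 (SD, n = 3) on side 1, where 2 of the 3 arrays were not above background, so no fold is given. GADD45A, a stress-induced cell cycle and DNA repair protein, was at 9.27, 9.39 and 9.13 on side 1 and 10.95, 10.43 and 11.06 on side 2. Its sides were 2.93-fold apart. None of these 8 genes overlapped between the sides, which follows from their choice as markers of the split. Since the split crosses the transductions, it also enters the error of their RUNX1 minus MCS differences. For SRPK3 that difference was 1.53 with a standard error of 1.55, so these genes cannot show whether the transduction had an effect.

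**Figure D2:**
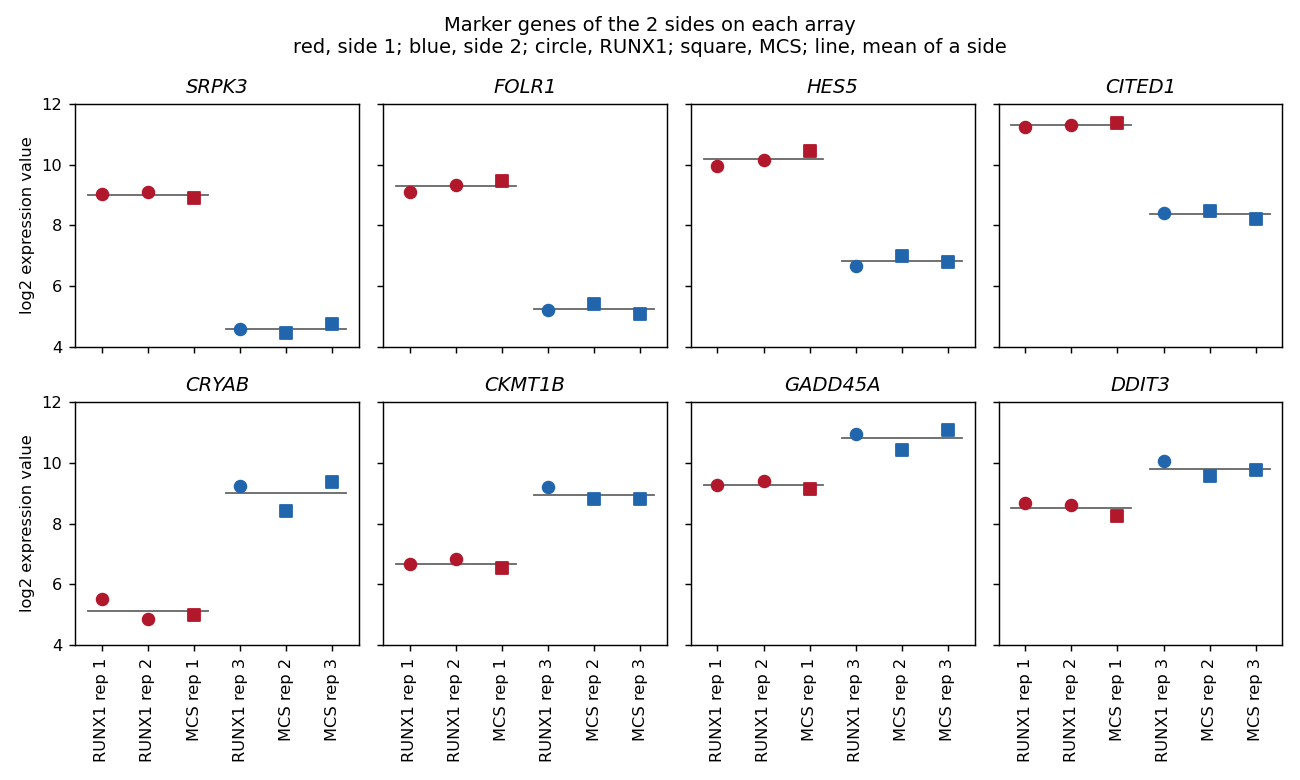
Log2 expression value of 8 marker genes on each array, side 1 in red and side 2 in blue, circles for RUNX1, squares for MCS, lines for the mean of a side. The RUNX1 replicate 3 circle lies with the MCS squares of side 2, and the MCS replicate 1 square with the RUNX1 circles of side 1.

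The 20 largest side differences on side 1 also included SCARNA11, SCARNA8, TIMP3 and LUM. TIMP3, a matrix-bound inhibitor of metalloproteinases, was at 8.88, 8.83 and 8.97 on side 1 and 5.91, 6.33 and 6.05 on side 2. LUM, the collagen-binding proteoglycan lumican, was at 8.37, 7.95 and 8.16 on side 1, was undetected on side 2 and was at least 6.24-fold higher. FST, the activin antagonist follistatin, was at least 3.82-fold higher on side 1, the chemokine CCL1 at least 3.71-fold and PAMR1 at least 2.96-fold. PSG4, a pregnancy-specific glycoprotein, differed by 2.54 and TCEAL7 by 2.48. PRUNE2 was at least 3.41-fold higher and SNORA11B at least 4.22-fold.
On side 2 the 20 largest began with CRYAB, CKMT1B and MIR503HG and did not include GADD45A or DDIT3. HRK, a proapoptotic BH3-only protein, was at 8.14, 8.67 and 8.52 on side 1 and 10.43, 9.84 and 10.36 on side 2. SAT1, the acetyltransferase that starts polyamine breakdown, was at 12.19, 12.34 and 11.93 on side 1 and 13.98, 13.65 and 14.01 on side 2, a 3.32-fold gap. GEM, a small GTPase, differed by -1.77 and its 3 probes passed the filter. ANKRD37, an ankyrin protein induced by hypoxia, differed by -1.81. PCK1, the gluconeogenic enzyme, was at least 3.05-fold higher on side 2, the glycoprotein hormone subunit CGA at least 2.60-fold, DRD3 at least 2.59-fold, APOF at least 2.25-fold and OSTN at least 2.02-fold, all undetected on side 1. The remaining genes of this group were MIR503HG, FAM171B, ANXA1, ABL2, SHISA2, CCBE1, SNORD25, SNORA56 and CKMT1A, with differences of -1.57 to -1.89.

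Small RNAs of the nucleus divided by class. Small nuclear RNAs are the RNA cores of the spliceosome. Cajal body RNAs (scaRNAs) guide the modification of these small nuclear RNAs, and box C/D and box H/ACA small nucleolar RNAs guide, for the most part, the methylation and pseudouridylation of ribosomal RNA. Of 11 small nuclear RNAs that passed the filter, 10 were higher on each array of side 1 and 0 on side 2, with a median difference of 1.31, and of 16 Cajal body RNAs 14 were higher on side 1 and 1 on side 2, with a median of 1.15. Of 72 box C/D RNAs 0 were higher on side 1 and 47 on side 2, with a median of -0.53. Box H/ACA RNAs were divided, 12 of 68 higher on side 1 and 30 on side 2 (median -0.29). Over all genes these shares were 26.3% and 18.1%. Mature forms of these RNAs carry no poly(A) tail, so the values may rest on precursors or tailed molecules, which the arrays do not resolve.
The mean level over the small nuclear RNAs was 11.17, 11.21 and 11.28 on side 1 and 9.79, 9.71 and 9.73 on side 2. For Cajal body RNAs it was 8.77, 8.88 and 8.96 on side 1 and 7.35, 7.64 and 7.35 on side 2. For box C/D RNAs it ran the other way, at 6.998, 7.009 and 6.947 on side 1 and 7.53, 7.38 and 7.61 on side 2. In each of these 3 classes the sides did not overlap. For box H/ACA RNAs the levels were 7.35, 7.37 and 7.36 on side 1 and 7.58, 7.41 and 7.64 on side 2, which also lay apart, by a small margin.

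**Figure D3:**
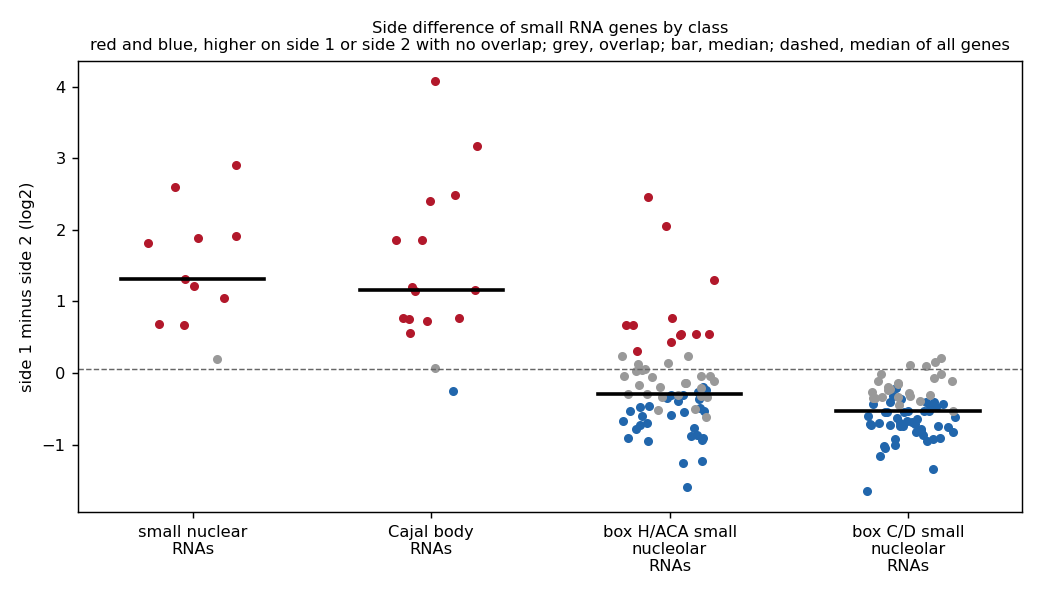
Side difference (log2, side 1 minus side 2) of each small RNA gene measured, by class, with red or blue points for genes whose sides do not overlap, bars at the class medians and a dashed line at the median of all genes. The points of small nuclear and Cajal body RNAs lie almost wholly above the line and those of box C/D RNAs mostly below it.

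SCARNA11 was at 9.72, 9.94 and 10.06 on side 1 and 5.42, 6.51 and 5.58 on side 2, where 2 arrays detected it. SCARNA8 was at 12.6 ± 0.0579 (SD, n = 3) on side 1 and 9.45 ± 0.512 (SD, n = 3) on side 2, and the differences of SCARNA23 and SCARNA4 were 2.49 and 2.40. Among these RNAs MCS replicate 2 was the highest array of side 2. The 2 genes of U4, the partner of U6 in the tri-snRNP, differed by 2.91 (RNU4-1) and 2.60 (RNU4-2), the U1 genes RNU1-3, RNVU1-18 and RNVU1-7 by 1.91, 1.89 and 1.81, and RNU4ATAC of the minor spliceosome by 1.31. U1 and U4 genes are near-identical copies, so the values of single copies are uncertain. TERC, the RNA template of telomerase, which carries a scaRNA-type H/ACA domain, was at 9.65, 10.11 and 10.18 on side 1 and 8.27, 8.81 and 8.29 on side 2. The 7SK RNA gene RN7SK was higher on side 2, by 0.59 on the log2 scale (side difference -0.59), and RMRP higher on side 1 by 0.64.
SNORD25 led the box C/D RNAs, at 7.77, 7.80 and 7.80 on side 1 and 9.56, 9.11 and 9.66 on side 2. SNORD69 (-1.34), SNORD53 (-1.15), SNORD22 (-1.05), SNORD21 (-1.02) and SNORD48 (-1.01) followed. Of box H/ACA RNAs SNORA56, SNORA8 and SNORA25 were higher on side 2 (-1.59, -1.25 and -1.22), whereas SNORA11B, SNORA79 and SNORA12 were higher on side 1 (2.46, 2.05 and 1.30).

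Most of these RNAs are cut from introns of longer transcripts, so each was set beside the measured gene that spans it in the RefSeq annotation, without regard to strand, which the table used does not give. The 12 Cajal body RNAs inside a measured gene had a median difference of 1.15, and the 12 genes around them one of -0.0865. Of these 12 genes 4 were higher on side 1 and 3 on side 2, beside 26.3% and 18.1% of all genes. SCARNA4 is spanned by KHDC4, which was higher on side 2 (-0.74), and SCARNA11 by CHD4, a chromatin remodeler that was only 0.38 higher on side 1. The 48 box C/D RNAs inside a measured gene had a median of -0.55, and the 29 genes around them one of -0.0263. Among these 29 genes 9 were higher on side 2 and 4 on side 1, beside 18.1% and 26.3% of all genes. Of the 35 box C/D RNAs of this kind that were higher on side 2, 11 lay in a gene that was higher on side 2. SNHG1, whose introns hold SNORD25, SNORD22 and SNORD31, was among them: it was at 12.62, 12.56 and 12.37 on side 1 and 13.23, 13.23 and 13.52 on side 2. SNORD21 lies in the ribosomal protein gene RPL5, whose difference was -0.073. Of 21 snoRNA host genes and long noncoding RNAs listed, 8 (38.1%, beside 18.1% of all genes) were higher on side 2 and 3 (14.3%, beside 26.3%) on side 1. The median was -0.33, and those higher on side 2 included SNHG1, EPB41L4A-AS1 (-0.62), SNHG17 (-0.61) and ZFAS1 (-0.59). Where neither the small RNA nor the gene around it overlapped between the sides, their directions could be compared. They lay on the same side for 4 Cajal body RNAs (side 1), 11 box C/D RNAs (side 2) and 2 small nuclear RNAs (side 1). For box H/ACA RNAs this held for 8 on side 2 and 4 on side 1. The small RNA and the gene lay on opposite sides for 2 Cajal body, 4 box C/D, 2 box H/ACA and 0 small nuclear RNAs.

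**Figure D4:**
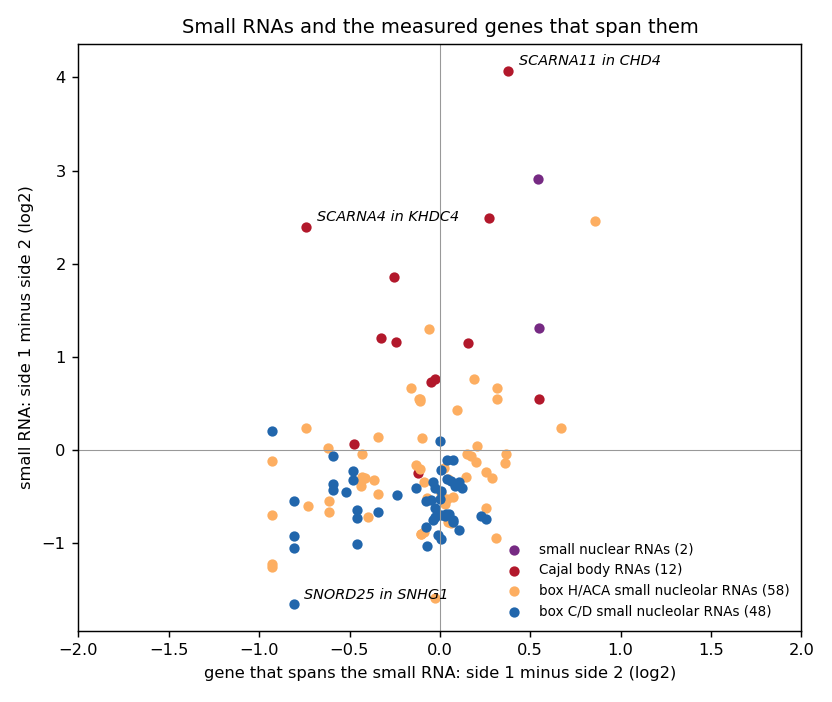
Side difference (log2) of 120 small RNAs against that of the measured gene that spans each, by class, with the number of RNAs in brackets. SCARNA4 lies in the upper left and SCARNA11 at the top, whereas the genes that span them lie within 1 log2 unit of 0.

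Genes of the integrated stress response were mostly higher on side 2. In this response phosphorylated eIF2 lowers translation while ATF4, and its partners of the C/EBP family, induce amino acid synthesis genes, CHOP (DDIT3) and the phosphatase subunit GADD34 (PPP1R15A) that ends the response. Of 48 measured genes of the list 25 were higher on each array of side 2 and 8 on side 1, beside 18.1% and 26.3% of all genes, and the median difference was -0.25. DDIT3 was at 8.68, 8.60 and 8.23 on side 1 and 10.05, 9.55 and 9.75 on side 2. PPP1R15A was at 9.79, 9.63 and 9.47 on side 1 and 11.05, 10.34 and 11.04 on side 2. ATF3, a stress-induced factor of the ATF family, was at 11.55, 11.81 and 11.26 on side 1 and 12.67, 12.34 and 12.73 on side 2. These genes lay apart on the sides by 1.04 to 1.28 log2 units. DDIT4, an inhibitor of mTORC1, differed by -1.004, and ASNS, asparagine synthetase, by -0.82, at 12.72, 12.61 and 12.55 on side 1 and 13.50, 13.39 and 13.45 on side 2. NUPR1 (-0.87) overlapped, and CHAC1, a glutathione-degrading ATF4 target, had a difference of 0.13 with overlap. The mean level over the 48 genes was 9.44, 9.39 and 9.30 on side 1 and 9.69, 9.59 and 9.65 on side 2.
Endoplasmic reticulum chaperones, the targets of the parallel unfolded protein response, were near or below the shares of all genes, with 6 of 36 (16.7%) higher on side 1 and 7 (19.4%) on side 2 (median -0.075). Heat shock proteins listed apart from these had 3 of 29 (10.3%) higher on side 1 and 7 (24.1%) on side 2 (median -0.077), with CRYAB and HSPA13 (-1.28) the largest.

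The letters TGATGNAA, the core of the C/EBP-ATF response element that ATF4 dimers bind, are shown in capitals in windows of 60 bases from the promoters of 3 of these genes, to set matched promoters beside their levels. The windows are given 5′ to 3′ on the strand of the gene, from RefSeq (GRCh38.p14), and lie at chr7:97872443-97872502 for ASNS, chr1:212565190-212565249 for ATF3 and chr15:40953236-40953295 for CHAC1, where the match is on the opposite strand.
ASNS: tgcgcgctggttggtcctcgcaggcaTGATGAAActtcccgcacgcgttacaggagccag
ATF3: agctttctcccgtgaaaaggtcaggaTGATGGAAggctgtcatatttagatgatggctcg
CHAC1: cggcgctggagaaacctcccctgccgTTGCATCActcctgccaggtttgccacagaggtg
On either strand the letters stood in 3.62% of 35116 promoter windows (250 bases before to 50 after each start) and in 14.1% of the 64 windows of measured stress response genes. By gene, the letters stood in the windows of 4.46% of 27305 genes and of 9 of 43 stress response genes (20.9%). These were ASNS, ATF3, CEBPG, CHAC1, GARS1, JDP2, NARS1, SLC3A2 and SLC7A1. Of the 3 genes shown, ASNS and ATF3 were higher on side 2 and CHAC1 overlapped, and these 3 do not stand for all 9.

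Notch genes were led by HES5 and a ligand. Notch receptors, cut by gamma-secretase after contact with a ligand of a neighbouring cell, release a fragment that acts with RBPJ on HES and HEY genes. DLL1, a Notch ligand, was at 10.05, 10.16 and 10.16 on side 1 and 8.85, 8.69 and 8.78 on side 2. The ligand JAG2, the gamma-secretase subunit PSEN2 and the target HEYL were higher on side 1 by 0.71, 0.84 and 0.55, whereas HES4 was higher on side 2 (-0.56). Of 29 measured Notch genes 10 (34.5%, beside 26.3% of all genes) were higher on side 1 and 4 (13.8%, beside 18.1%) on side 2, with a median of 0.11.
The HES5 promoter is shown because HES5 had the largest side difference of the list. Its window lies at chr1:2530214-2530513 on the minus strand (RefSeq, GRCh38.p14), and the capitals mark GTGGGAA, the core of RBPJ sites, which stood 81 bases before the start and, on the opposite strand, 224 bases before it.
HES5: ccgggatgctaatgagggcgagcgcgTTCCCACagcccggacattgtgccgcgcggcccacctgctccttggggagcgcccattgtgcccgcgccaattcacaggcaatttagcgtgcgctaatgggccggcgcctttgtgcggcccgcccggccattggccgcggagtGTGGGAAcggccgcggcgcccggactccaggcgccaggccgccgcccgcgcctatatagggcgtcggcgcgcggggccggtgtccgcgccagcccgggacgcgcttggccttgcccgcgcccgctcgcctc
On either strand these letters stood in the windows of 7.62% of 27305 genes, and of 6 of 25 measured Notch genes (24.0%) (HES1, HES4, HES5, HEY2, HEYL and RBPJ). HES4, with such a match, lay on the other side from HES5.

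Developmental genes also differed in both directions. HOX genes, the clustered homeobox factors that mark position along the body axis, were higher on side 2 for 13 of 20 measured members (65.0%, beside 18.1% of all genes) and on side 1 for 1 (5.0%, beside 26.3%), with a median of -0.54. HOXD10 was at 7.74, 7.91 and 7.63 on side 1 and 9.01, 9.16 and 9.03 on side 2, and HOXD11 at 8.63, 8.91 and 8.94 and at 10.30, 9.88 and 10.09. HOXA2, HOXB5 and HOXC9 differed by -1.17, -1.12 and -1.005, so each of the A, B, C and D clusters had a member at least 2-fold higher on side 2. HOXA2 was the only measured gene of the A cluster. The medians of the B, C and D clusters were -0.49, -0.42 and -0.88 over 8, 6 and 5 measured genes.
Of 20 kidney and nephron progenitor factors 4 (20%, beside 26.3% of all genes) were higher on side 1 and 10 (50%, beside 18.1%) on side 2 (median -0.34). CITED1 and RET, the GDNF receptor of the ureteric bud, led side 1. RET was at 7.58, 7.42 and 7.31 on side 1 and 5.62, 5.75 and 5.79 on side 2. GPC3, a membrane heparan sulfate proteoglycan, was at 6.57, 6.19 and 6.10 on side 1 and 7.75, 7.81 and 7.72 on side 2, and the EYA3 and SIX4 genes, whose proteins act together, differed by -1.02 and -0.83. Among BMP and TGF-beta feedback genes ID1, a dominant-negative helix-loop-helix factor induced by BMP, was at 8.15 ± 0.0867 (SD, n = 3) on side 1 and 6.93 ± 0.124 (SD, n = 3) on side 2, with ID3 and ID2 also higher on side 1 (0.71 and 0.45). BAMBI, a BMP pseudoreceptor, was higher on side 2 (-1.10). Over the list 5 of 19 (26.3%) were higher on each side, beside 26.3% (side 1) and 18.1% (side 2) of all genes.

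Of 14 measured muscle genes 4 (28.6%) were higher on side 1 and 1 (7.14%) on side 2, beside 26.3% and 18.1% of all genes. TNNC1, the cardiac and slow muscle troponin C, was at 7.43, 7.61 and 7.72 on side 1 and 5.47, 5.61 and 5.07 on side 2, where 1 array detected it. CKM, the muscle creatine kinase, was undetected on side 2 and at least 2.60-fold higher on side 1. SRPK3 and CKM passed the filter only through side 1. CNN2 (0.59) was also higher on side 1. TPM2, a tropomyosin, was higher on side 2 (-1.06), and MYOD1 overlapped (0.39).
The creatine kinases, which store phosphate energy, thus lay on different sides: CKM on side 1 and the mitochondrial genes CKMT1A and CKMT1B on side 2. CKMT1A was at 8.78, 8.89 and 8.69 on side 1 and 10.50, 10.70 and 10.73 on side 2. CKMT1A and CKMT1B are near-identical neighbours, so their probes may read both. The brain-type CKB did not separate, with a difference of -0.13.
In the matrix list 14 of 33 genes (42.4%, beside 26.3% of all genes) were higher on side 1 and 4 (12.1%, beside 18.1%) on side 2 (median 0.18). Beside TIMP3 these included COL18A1 (1.32) and COL2A1 (1.31), collagen chains of basement membrane and cartilage. TIMP1, an inhibitor of the same family as TIMP3, was at 10.40, 10.77 and 10.54 on side 1 and 12.20, 11.58 and 12.08 on side 2, and LOX, the collagen cross-linking oxidase, was higher on side 2 (-0.87).

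Apoptosis and cell cycle genes differed in both directions. Of the proapoptotic BH3-only genes of the BCL2 family, HRK, BCL2L11 (BIM, -1.19), PMAIP1 (NOXA, -0.71) and BBC3 (PUMA, -0.42) were higher on side 2. BAX, the effector they act on, was higher on side 1, at 9.52, 9.86 and 10.06 against 8.91, 8.76 and 8.91. MCL1, an antiapoptotic member, was higher on side 2 (-0.51). In all, 4 of 16 measured family members (25%, beside 26.3% of all genes) were higher on side 1 and 6 (37.5%, beside 18.1%) on side 2.
Of 7 measured genes named as cyclin-dependent kinase inhibitors, 5 (71.4%, beside 26.3% of all genes) were higher on side 1. On side 2 0 were higher, beside 18.1% (median 0.31). Inhibitors of this kind slow the cell cycle, but CDKN3 was counted by its name only. It was 1 of these 5, and its difference (0.31) was the median of the list. CDKN1A (p21) was at 12.34, 12.47 and 12.36 on side 1 and 12.01, 11.39 and 11.87 on side 2, and CDKN1C (p57) differed by 0.63. Of 22 p53 target genes 9 (40.9%) were higher on side 1, with TP53INP1 (1.05), SPATA18 (1.08) and TP53I3 (at least 1.93-fold) in front, and 5 (22.7%) on side 2, with GADD45A and ZMAT3 (-0.87). HEK293T cells hold p53 bound by large T antigen, so this list is known as a p53 list from other cells.
Of 28 immediate early genes 2 (7.14%) were higher on side 1 and 8 (28.6%) on side 2, beside 26.3% and 18.1% of all genes. FOSB was at 7.66, 7.61 and 7.26 on side 1 and 6.51, 6.06 and 6.21 on side 2, and EGR1 at 8.33, 8.18 and 8.13 and at 7.34, 6.72 and 6.87. IER5 (-1.02) and MAFF (-0.76) were higher on side 2. Of 24 hypoxia genes 5 (20.8%) were higher on side 1, led by EPAS1 (HIF-2 alpha, 1.26), and 8 (33.3%) on side 2, with HK2 (-0.86) and ADM (-0.81).

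Genes of general metabolism showed small differences, but often in a single direction. The proteasome, which degrades ubiquitin-tagged proteins, had 20 of 40 genes (50%, beside 26.3% of all genes) higher on side 1 and 1 (2.5%, beside 18.1%) on side 2 (median 0.16). PSME2, an activator subunit, was at 11.35, 11.39 and 11.62 on side 1 and 10.86, 10.88 and 10.74 on side 2, a 1.54-fold gap. The lysosome had 21 of 36 genes (58.3%) higher on side 1 and 5 (13.9%) on side 2 (median 0.19), among them the channel MCOLN1 (0.88) and the proton pump subunit ATP6V1H (0.78), whereas the sulfatase IDS was higher on side 2 (-0.85). ATP synthase had 10 of 19 and 1 (median 0.21), respiratory complex I 13 of 32 and 2 (0.15), complexes II to IV 11 of 22 and 0 (0.12) and the citrate cycle 10 of 20 and 1 (0.22). NDUFB3 of complex I was at 13.59, 13.49 and 13.66 on side 1 and 13.13, 13.12 and 12.93 on side 2. None of the genes of ATP synthase, the respiratory complexes or the proteasome reached a 2-fold difference.
Mitochondrial ribosomal proteins were nearer to all genes, with 23 of 76 (30.3%, beside 26.3% of all genes) higher on side 1 and 10 (13.2%, beside 18.1%) on side 2 (median 0.087). Cytosolic ribosomal proteins overlapped for 61 of 74 genes, beside 6185 of all 11129 genes, with a median of -0.0051. Higher on side 1 were 9 (12.2%, beside 26.3% of all genes), and on side 2 4 (5.41%, beside 18.1%). Sterol synthesis had 6 of 21 genes (28.6%) higher on each side, beside 26.3% (side 1) and 18.1% (side 2) of all genes. IDI1, isopentenyl diphosphate isomerase, was higher on side 2 (-1.10). Of 31 measured microRNA genes 1 (3.23%, beside 26.3% of all genes) was higher on side 1 and 7 (22.6%, beside 18.1%) on side 2 (median -0.21). MIR221 was the largest (-0.85), although the probes were not shown to read mature microRNAs.

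**Figure D5:**
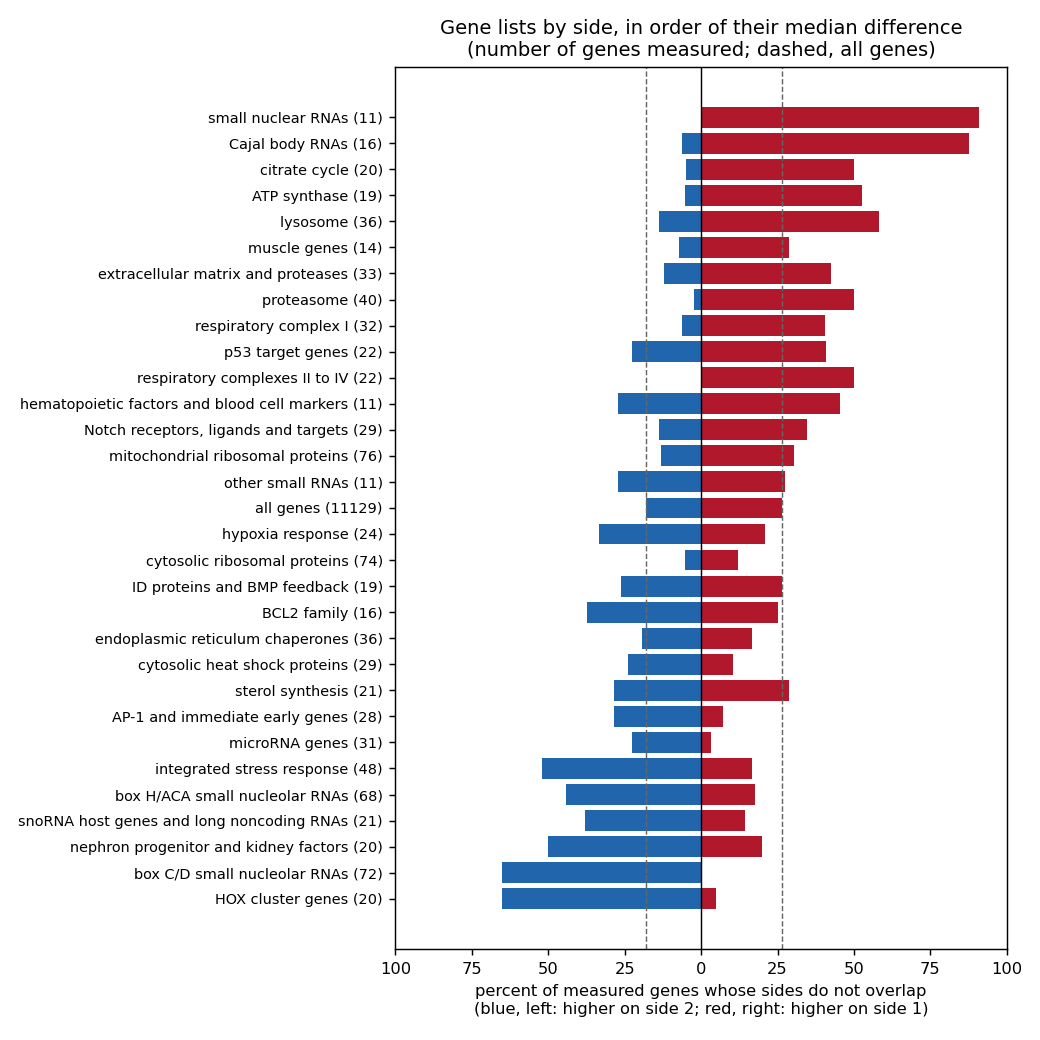
Percent of the measured genes of each list that were higher on side 1 (red, right) or on side 2 (blue, left) without overlap, ordered by the median side difference, with the number of genes measured in brackets and dashed lines at the shares of all genes, 26.3% and 18.1%. Small nuclear and Cajal body RNAs stand at the top, and box C/D RNAs and HOX genes at the bottom.

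Of the 75 lists, 4 had a median of at least 0.3 and 4 of at most -0.3, and 67 lay between. The first 4 were small nuclear RNAs, Cajal body RNAs, cyclin-dependent kinase inhibitors (7 measured genes) and the fibroblast and endothelial markers. The median of these markers rested on 3 measured genes of 15. Among them LUM and COL1A1 passed the filter mainly or wholly through side 1, so this list does not describe a class. The 4 lists at -0.3 or below were box C/D RNAs, snoRNA hosts, HOX genes and kidney factors. Median differences by chromosome lay between -0.0119 and 0.131, and the side difference was not related to the mean level of a gene (Spearman -0.034 across genes) or to its span in the genome (0.069 over 11122 genes).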

How the data were processed

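The authors amplified total RNA with an Ambion kit and hybridized the cRNA to HT-12 v4 BeadChips. The deposited table gives, for each of 47231 probes and 6 arrays, an intensity that was neither background-corrected nor normalized and a deposited p-value of detection against negative control probes, both exported by the authors. A table of deposited log2 values, processed by the authors with lumi, served as an alternative. Its version, background step and genome build are not given in the sources used here.

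Background was estimated from the p-values of detection, and quantile normalization and the log2 scale followed, all in R 4.3.3 by the neqc function of limma 3.58.1, whose offset was 16. The filter (p under 0.05 on 3 or more arrays) kept 18867 probes, and each gene was read from its brightest. The platform annotation gave 30113 probes 1 symbol and 8 several, and 17110 were unnamed here. Entrez identifiers of 30074 probes matched RefSeq (GRCh38.p14), with 0 symbols updated. Symbols and promoters were matched by name, and the promoter table had 35116 windows.

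The sides, the gene lists and the genes to describe were chosen with earlier results of these data known. The split was seen in the data, so sides were counted and not tested: a gene counts as higher on a side when its values on the 3 arrays of that side exceed those on the other 3, and as 2-fold from a log2 difference of 1. The text names the 8 markers, the 20 largest differences of each side, up to 4 members of each list with the largest differences, and the 5 genes furthest apart between RUNX1 and MCS on both sides in each direction. Other genes named, such as further list members, CHAC1, CKB and those around a small RNA, were chosen after their values were seen, and 33 of 75 lists are described. RUNX1 and MCS were compared with limma's lmFit and eBayes and Benjamini-Hochberg adjustment, with no covariate, checked on simulated data. No 2 arrays were identical. With 3 arrays a group, outlying arrays were not tested for, and the number of arrays limits the precision. Alternatives were other background corrections, normalizations, filters, probe summaries and fold limits, the authors' values, leaving out each array, the replicate number as a block, array weights and the methods' t-test.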

Additional observations from a re-analysis of the deposited data

How the results depend on the processing

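With 202 genes at least 2-fold higher on side 1 and 137 on side 2, the counts depended on the scale. They fell to 54 and 49 without background correction, 99 and 79 with normexp without detection p-values, 91 and 79 with an offset of 50, and 42 and 40 with the authors' processed values. A filter of a detection p under 0.01 on all 6 arrays, which by construction drops genes undetected on a side, gave 107 and 109. A 1.5-fold limit gave 857 and 636, and a 4-fold limit 24 and 2. Leaving out each array gave 178 to 267 and 118 to 165. The 240 genes 2-fold apart within both transductions became 81, 138, 128, 68 and 154 under the first 5 of these settings in turn. Median scaling gave 1 gene in place of 0 that was 2-fold apart between RUNX1 and MCS on both sides. Array weights called 897 genes between RUNX1 and MCS in place of 0, but their lowest weights, 0.279 and 0.3144, fell on the arrays that lie across from the rest of their transduction (RUNX1 replicate 3 and MCS replicate 1), so these calls cannot be told apart from the sides. The replicate number as a block called 0 genes (523 at an unadjusted p under 0.05). The deviations of same-numbered arrays from their transduction means correlated at 0.568, -0.347 and 0.704 for replicates 1, 2 and 3. Same-numbered arrays share a side for replicates 1 and 3 but not for replicate 2, so these values cannot decide whether the numbers mark pairs. The methods' t-test called 0 after adjustment (360 before), and the other alternatives 0. No named gene reversed its side difference. List medians reversed for blood cell markers from 0.12 with no filter (-0.025), with the stricter filter (-0.067) and on leaving out an array (-0.035 to 0.204, below 0 when RUNX1 replicate 2 or MCS replicate 1 was left out), and for p53 targets with no filter (-0.014). The causes were not tested.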

Other observations

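Neighbouring genes of the X chromosome lay on different sides. In the order of the RefSeq annotation, GPC4 was higher on side 1 (0.43), GPC3 on side 2 (-1.47), MIR106A and the chromatin protein gene PHF6 on side 2 (-0.58 and -0.81), HPRT1, the purine salvage enzyme, on side 1 (0.25), MIR450A1 overlapped (-0.033), and MIR503HG and PLAC1, a trophoblast gene, were higher on side 2 (-1.89 and -1.20). These genes were chosen after their values were seen.

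Zinc finger genes, the largest list with 287 measured members, had 66 higher on side 1 and 57 on side 2. Their share was slightly below that of all genes on side 1 (26.3%) and slightly above it on side 2 (18.1%). Single members stood apart. ZNF682 was at 10.89, 10.88 and 10.55 on side 1 and 12.49, 12.13 and 12.13 on side 2, and ZNF365, undetected on side 2, was at least 2.66-fold higher on side 1. Of the splicing kinases related to SRPK3, CLK1 (-0.53), CLK4 (-0.50) and CLK3 (-0.44) were higher on side 2, and SRPK1 overlapped (0.16). CDH15, a muscle cadherin, was at least 2.01-fold higher on side 1.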
